A study of Mus musculus with 8 samples.

Results

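The secretoglobins of club cells are 4 genes, Scgb1a1, Scgb3a1, Scgb3a2 and Scgb1c1, of 55401 genes in the count table. They were picked by symbol as secretoglobins of airway secretory cells, and all 4 passed the filter on low counts. The mouse annotation names 65 other secretoglobin genes. Of these, 63 had 0 counts in every library, and Scgb1b27 and Scgb1b30 had at most 1 and 4 counts in a library, so neither was tested. Gene expression had been measured by RNA sequencing in 8 mouse libraries of lung cells, 4 per group, taken 10 days after tamoxifen. The control libraries had the genotype Scgb1a1cre; Cdh1F/+, in which Scgb1a1 drives the Cre recombinase and 1 allele of Cdh1 is floxed. Cdh1 encodes E-cadherin, which holds epithelial cells together. The genotype Scgb1a1cre; Cdh1F/F, with both alleles floxed, is that of the group here called mutant-labelled. Both groups therefore carried the Cre and received tamoxifen, and the controls already carried a floxed allele. The comparison asks how loss of E-cadherin in club cells alters expression in such lung cells. The age of the mice is not given, nor how the Cre was inserted, nor which sorted fraction (GFP+ or GFP-) a library holds. Cells had been depleted of immune and endothelial cells and enriched for EPCAM, and the labels name a stranded and an unstranded kit without saying which made a library. Separate animals are not stated for the libraries, and a p-value therefore measures the spread among libraries, which may be technical.

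Secretoglobins are small secreted proteins that pair into disulfide-linked dimers around a hydrophobic pocket. Scgb1a1 encodes the main secreted protein of club cells, the secretory cells that line small airways, and is the standard marker of these cells. Scgb3a2 is made by the same cells and appears early in lung development, and Scgb3a1 is most abundant in secretory cells of the large airways. Scgb1c1 is best known from nasal tissue. The transcription factors NKX2-1 and FOXA are known to act on secretoglobin genes of the lung.

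The 4 genes lie on different chromosomes. On GRCm38, Scgb1a1 (ENSMUSG00000024653) spans chromosome 19, 9083636 to 9087958, on the minus strand, with 3 merged exons of 476 bases in all. Scgb3a1 (ENSMUSG00000064057) spans chromosome 11, 49663610 to 49665118, on the plus strand, with 4 merged exons of 598 bases. Scgb1c1 (ENSMUSG00000038801) spans chromosome 7, 140845547 to 140846769, on the plus strand, with 3 merged exons of 455 bases. An exon of C330022C24Rik on the opposite strand overlaps an exon of Scgb1c1. Strand was not used in counting, so reads of the shared stretch were not counted for either gene. C330022C24Rik itself had 0 to 4 counts per library.

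The promoters of the 2 members with an entry in RefSeq's table for GRCm38.p6 are shown because these genes moved in opposite directions, as described below. The capitals mark matches, on either strand, to TCAAG, the core of NKX2-1 sites, and to TGTTTAC or TGTTTGC, forms of the FOXA site. The sequences run along the plus strand and stop before the first annotated exon, Scgb3a1 at chr11:49663345-49663594 and Scgb1c1 at chr7:140845315-140845546.
Scgb3a1: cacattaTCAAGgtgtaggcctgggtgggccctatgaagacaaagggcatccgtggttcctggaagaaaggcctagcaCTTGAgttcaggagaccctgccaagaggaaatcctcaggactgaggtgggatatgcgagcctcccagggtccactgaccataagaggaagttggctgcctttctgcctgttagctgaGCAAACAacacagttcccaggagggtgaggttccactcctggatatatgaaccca
Scgb1c1: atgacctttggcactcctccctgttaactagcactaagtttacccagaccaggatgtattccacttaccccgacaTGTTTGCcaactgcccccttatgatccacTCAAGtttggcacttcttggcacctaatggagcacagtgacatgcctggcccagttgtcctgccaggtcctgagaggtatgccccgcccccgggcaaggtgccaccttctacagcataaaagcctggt
Both windows held both kinds of match. The motifs were chosen with the promoters in view, so the shares given below do not test this. Scgb3a1 had TCAAG 243 bases and, on the other strand, 172 bases before the RefSeq start, and TGTTTGC on the other strand 55 bases before it. Scgb1c1 had TGTTTGC 175 bases and TCAAG 146 bases before its start. The motifs do not overlap one another. Over 32851 promoter windows of the same table, 35.9% held TCAAG, 7.29% held a FOXA form and 2.82% held both. A match describes the letters of the window and is not a measured binding site.

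Scgb1a1 and Scgb1c1 fell in the mutant-labelled libraries, Scgb3a1 rose, and Scgb3a2 had a lower mean without passing the test. Thus 3 of the 4 were called, beside 7.81% of all 16964 genes tested. Adjusted p-values of genes are edgeR's, over all genes tested. Total counts ran from 15111663 to 21673654 per library, and a count of 0 would have allowed a level of up to 0.138 to 0.199 CPM, which are counts scaled to equal totals, for counting error alone. Counts summed over all exons of Cdh1 do not reveal a deletion of some, and they did not check the labels: the mean was 383.5 ± 44.7 CPM in the control group and 403.4 ± 6.08 CPM in the other (SD, n = 4 each). Every direction therefore rests on the labels. Over all genes, controls 2 and 3 differed from each other by a chi-square per gene of 4.55 and controls 1 and 4 by 18.1, but the pairs across differed by 33.1 to 41.3. Counts without either pair are given with some of the lists, and larger changes in the others stand in the closing sections. Markers of many lung cells were present in addition to those of club cells, so the libraries did not hold airway cells alone. Beside the marker counts that follow, 5.45% of all tested genes were called higher and 2.36% lower. Of 9 epithelial markers 7 rose, with a summed level of 1016 to 1378 CPM in controls and 1881 to 2139 CPM in mutant-labelled libraries. The most abundant of the 9 was Cdh1, the floxed gene itself, which was not called. Without it the other 8 summed to 694.4 to 983.1 CPM in controls and 1485 to 1732 CPM in mutant-labelled libraries. Of 9 endothelial markers 4 fell, with summed levels of 4337 to 5515 and 3520 to 3952 CPM, although endothelial cells had been depleted. That count was 0 without controls 2 and 3 and 8 without controls 1 and 4. It ran from 0 to 7 with 1 library left out, 7 being without control 1. Of 9 alveolar type II markers, 0 were called by edgeR or by DESeq2 and 1 had an unadjusted p under 0.05, and their summed level was 27761 to 39319 CPM in controls and 29510 to 38240 CPM in mutant-labelled libraries. Of 9 leukocyte markers 3 rose, with summed levels of 506.3 to 647.5 and 906.8 to 1152 CPM, but without Chil3, the most abundant, the sums overlapped at 192.1 to 376.5 and 301.8 to 345.4 CPM. Of 10 ciliated cell markers 6 rose and 1 fell, with summed levels of 2504 to 2989 and 2231 to 2746 CPM. The gene that fell, Sec14l3, carried most of that sum in controls only, at 1508 to 1868 CPM against 958.6 to 1192 CPM in mutant-labelled libraries. The other 9 summed to 996.5 to 1242 CPM in controls and 1273 to 1620 CPM in mutant-labelled libraries. None of these marker genes was at 0 in all libraries, and their part in the results below was not tested. In such bulk samples, fewer cells of a type and less RNA per cell cannot be told apart.

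Scgb1a1, the most abundant member, stood at 14148, 12873.5, 13119 and 13469 CPM in controls 1 to 4 and at 4419, 4392, 3755 and 4143 CPM in mutant-labelled libraries 1 to 4. Every mutant-labelled library lay below every control, as for 7.07% of all tested genes, and the spread inside each group was small beside the gap. The mean fell from 13402 ± 554 to 4177 ± 307 CPM (SD, n = 4 each). This is a log2 fold change of -1.68 ± 0.09 (SE; 95% interval -1.89 to -1.47; adjusted p = 1.35e-05). Of 16964 genes tested, 401, or 2.36%, were called lower, and 18, or 0.106%, were called lower by at least as much as Scgb1a1, itself included. Its share of all counts was 1.24% to 1.44% in controls and 0.385% to 0.452% in mutant-labelled libraries. By level per length (RPKM, CPM per kilobase of exon), it ranked first of the tested genes in each control and second in each mutant-labelled library.

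Scgb1c1, the least abundant member, was the one with the largest relative fall. It had 189, 154, 220 and 175 counts in controls 1 to 4 and 38, 46, 35 and 55 counts in mutant-labelled libraries 1 to 4, equal to 9.10, 10.6, 12.9 and 8.97 CPM and to 2.19, 2.51, 1.96 and 2.49 CPM. The groups did not overlap, and all 8 values lay well above the limit set by a count of 0. Its log2 fold change was -2.18 ± 0.17 (SE; 95% interval -2.55 to -1.80; adjusted p = 8.57e-05). This is a 4.53-fold fall in a gene with 35 to 55 counts per mutant-labelled library, and the interval is wider than that of Scgb1a1.

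Scgb3a1 went the other way. It stood at 281.1, 466.3, 433.3 and 430.1 CPM in controls 1 to 4 and at 802.2, 727.1, 609.2 and 774.3 CPM in mutant-labelled libraries 1 to 4. All mutant-labelled libraries lay above all controls, as for 9.75% of tested genes, and control 1 was the lowest of the 8. The mean rose from 402.7 ± 82.7 to 728.2 ± 85.2 CPM (SD, n = 4 each), a log2 fold change of 0.85 ± 0.16 (SE) with a 95% interval from 0.50 to 1.21. The adjusted p was 0.0102, and 5.45% of all tested genes were called higher. Epcam, an epithelial surface marker, rose 1.53-fold in the same libraries. With each library scaled to its count of Epcam, the log2 fold change of Scgb3a1 was 0.25 ± 0.13 (SE; adjusted p = 0.087), so its rise was not called relative to Epcam.

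Scgb3a2 (ENSMUSG00000038791) spans chromosome 18, 43764289 to 43767399, on the plus strand, with 2 merged exons of 880 bases. It stood at 891.3, 1096, 1126 and 1093 CPM in controls 1 to 4 and at 692.7, 824.1, 552.5 and 874.0 CPM in mutant-labelled libraries 1 to 4. The groups did not overlap, but control 1 and mutant-labelled library 4 lay next to each other at 891.3 and 874.0 CPM. Groups did not overlap for 16.8% of all tested genes. The means were 1052 ± 108 and 735.8 ± 144 CPM (SD, n = 4 each). The log2 fold change of -0.52 ± 0.14 (SE; 95% interval -0.84 to -0.19) was not called (adjusted p = 0.0609). The call turned with the libraries and the tool: the adjusted p was 0.0272 without control 1 and 0.0245 without controls 1 and 4, and 0.00861 with DESeq2. Scaled to Epcam, it was called lower, at -1.12 ± 0.15 (log2 fold change ± SE; adjusted p = 9.39e-05). That scaling moved the median over all genes to -0.63, so Scgb3a2 lay 0.50 below this median and Scgb3a1 0.88 above it on the log2 scale.

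**Figure D1:**
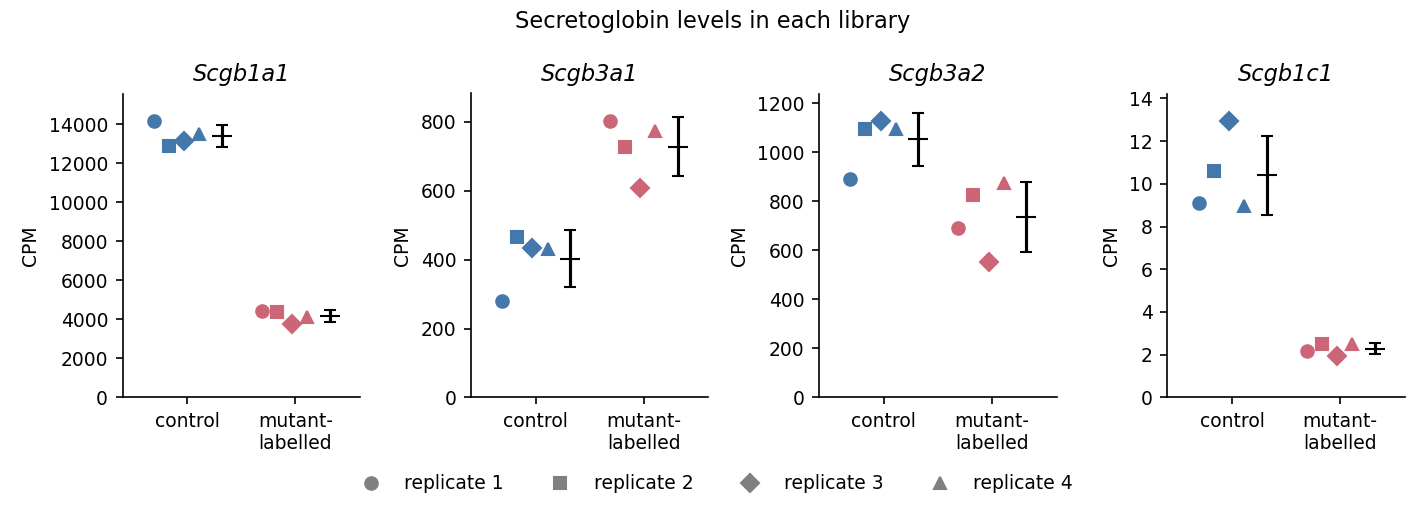
CPM of each secretoglobin (vertical axes, linear from 0) in the 4 control and 4 mutant-labelled libraries; marker shapes give the replicate number, which does not pair libraries, and bars give the mean and SD. Scgb1a1 fell from 12873.5 to 14148 CPM down to 3755 to 4419 CPM, Scgb3a1 rose, and the nearest values of the groups for Scgb3a2 were 891.3 and 874.0 CPM.

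Mutant-labelled library 3 had the lowest CPM of its group for all 4 members. In the controls no library was lowest for all: control 1 had the highest Scgb1a1 and the lowest Scgb3a1 and Scgb3a2 of its group. The spread among the controls was thus not one common scale across the 4 genes.

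By level per length, the order of Scgb3a1 and Scgb3a2 differed between the groups. In these units, Scgb1a1 stood at 28157 ± 1164 RPKM, Scgb3a2 at 1195 ± 123, Scgb3a1 at 673.4 ± 138 and Scgb1c1 at 22.9 ± 4.05 RPKM in controls (SD, n = 4 each). All 4 controls gave this order. In mutant-labelled libraries the levels were 8776 ± 646 RPKM for Scgb1a1, 1218 ± 142 for Scgb3a1, 836.2 ± 164 for Scgb3a2 and 5.03 ± 0.577 RPKM for Scgb1c1 (SD, n = 4 each). All 4 mutant-labelled libraries had Scgb3a1 above Scgb3a2. Without division by length (598 and 880 bases), Scgb3a2 was still above Scgb3a1 in mutant-labelled libraries 2 and 4, at 824.1 against 727.1 and 874.0 against 774.3 CPM, and the group means were 735.8 and 728.2 CPM. The ranges of these neighbours did not overlap in mutant-labelled libraries, where Scgb3a2 reached 993.2 RPKM at most and Scgb3a1 was 1019 RPKM at least, and in controls Scgb3a1 reached 779.8 RPKM against at least 1013 RPKM for Scgb3a2. Among all tested genes ordered by RPKM, Scgb3a1 moved from ranks 25 to 50 in controls to ranks 13 to 20, and Scgb3a2 from ranks 16 to 22 to ranks 22 to 39. Scgb1c1 moved from ranks 1793 to 2672 to ranks 7843 to 8868.

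The summed level of the 4 genes was 30048 ± 923 RPKM in controls and 10835 ± 884 RPKM in mutant-labelled libraries (SD, n = 4 each). Scgb1a1 made up 93.7% ± 1.02 of this sum in controls and 81.0% ± 1.46 of it in the mutant-labelled group (SD, n = 4 each). For Scgb3a1 the share was 2.25% ± 0.515 and 11.2% ± 0.625, and that of Scgb3a2 was 3.99% ± 0.505 and 7.68% ± 1.15 (SD, n = 4 each). Scgb1c1 took 0.0763% ± 0.015 and 0.0464% ± 0.00343 (SD, n = 4 each). Shares of one sum are tied to each other, so a fall of Scgb1a1 alone raises the other shares.

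**Figure D2:**
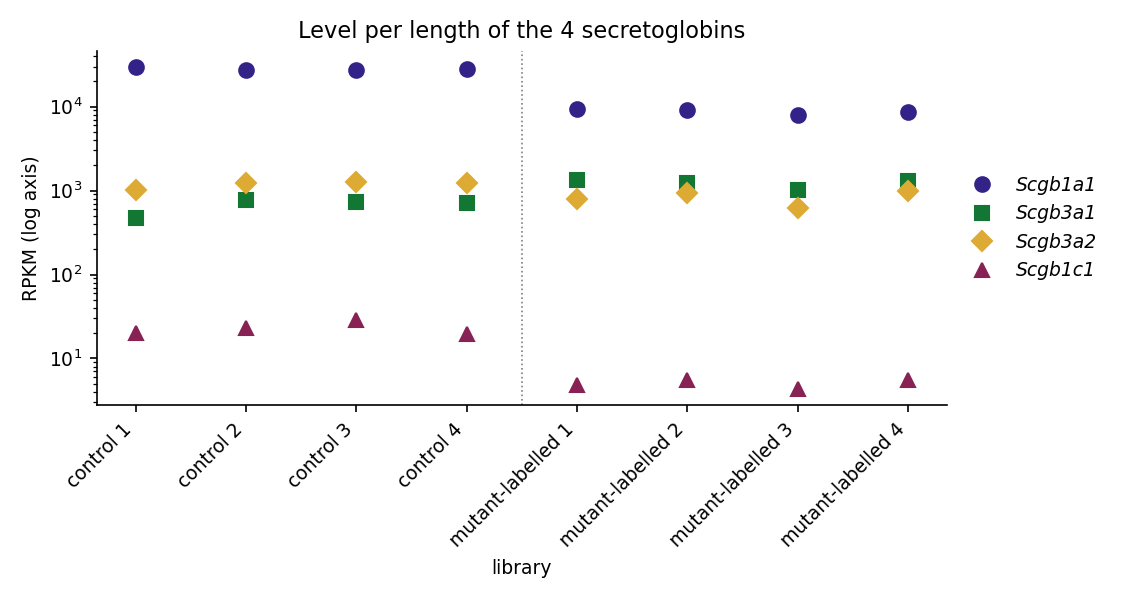
Level per length (RPKM, logarithmic vertical axis) of the 4 secretoglobins in each library (horizontal axis), 1 point per gene and library. Scgb3a2 lies above Scgb3a1 in the 4 controls and below it in the 4 mutant-labelled libraries, while Scgb1a1 is highest and Scgb1c1 lowest throughout.

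Ratios of counts inside a library do not depend on how libraries are scaled, and test directly whether members changed unequally. In all, 10 ratios were compared between the groups with a two-sided exact permutation test, which cannot give a p below 0.0286 here, and p-values were adjusted over the 10 (Benjamini-Hochberg). Each of the 6 ratios between members differed, without overlap of the groups, at that smallest p (adjusted p = 0.0317, exact permutation test). These 6 are formed from 4 genes and are tied to each other, so they are not 6 separate results. Scgb1a1 had 50.3, 27.6, 30.3 and 31.3 counts per count of Scgb3a1 in controls 1 to 4, while mutant-labelled libraries 1 to 4 gave 5.51, 6.04, 6.16 and 5.35. The ratio was high in every control, most of all in control 1, and it fell 5.89-fold by its mean log2 value. Scgb1a1 had 15.9, 11.7, 11.6 and 12.3 counts per count of Scgb3a2 in controls 1 to 4, while mutant-labelled libraries 1 to 4 gave 6.38, 5.33, 6.80 and 4.74. That ratio fell 2.22-fold.

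Between the family's 2 type 3A members, Scgb3a1 had 0.315 to 0.426 counts per count of Scgb3a2 in controls and 0.882 to 1.16 in mutant-labelled libraries, a 2.65-fold rise. Between the 2 members that fell, Scgb1a1 had 1014 to 1554 counts per count of Scgb1c1 in controls and 1664 to 2020 in mutant-labelled libraries. By this ratio the decrease of Scgb1c1 was 1.39-fold deeper than that of Scgb1a1, the smallest difference among the 6 ratios. The log2 ratio moved by 0.48, against a replicate SD of 0.29 among controls and 0.12 in the other group, and by 0.25 without controls 2 and 3. The ratio of Scgb3a1 to Scgb1c1 rose 8.21-fold, the largest difference, and that of Scgb3a2 to Scgb1c1 rose 3.10-fold.

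Against Epcam in the same library, Scgb1a1 fell 4.93-fold, Scgb1c1 6.87-fold and Scgb3a2 2.22-fold (adjusted p = 0.0317 each, exact permutation test). The log2 ratio of Scgb3a2 to Epcam was 3.95, 3.89, 4.08 and 3.95 in controls 1 to 4, while mutant-labelled libraries 1 to 4 gave 2.65, 2.96, 2.49 and 3.19. The groups did not overlap on this scale, on which the median log2 fold change of all genes was -0.63 and 11511 of 16964 genes were called lower. The log2 ratio of Scgb3a1 to Epcam was 2.28, 2.66, 2.70 and 2.61 in controls 1 to 4, while mutant-labelled libraries 1 to 4 gave 2.86, 2.78, 2.63 and 3.01. These groups overlapped, and the difference of 0.26 gave a p of 0.0857 by the exact permutation test, also after adjustment. Epcam is made by other epithelial cells as well as club cells, so it is no measure of the number of club cells.

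**Figure D3:**
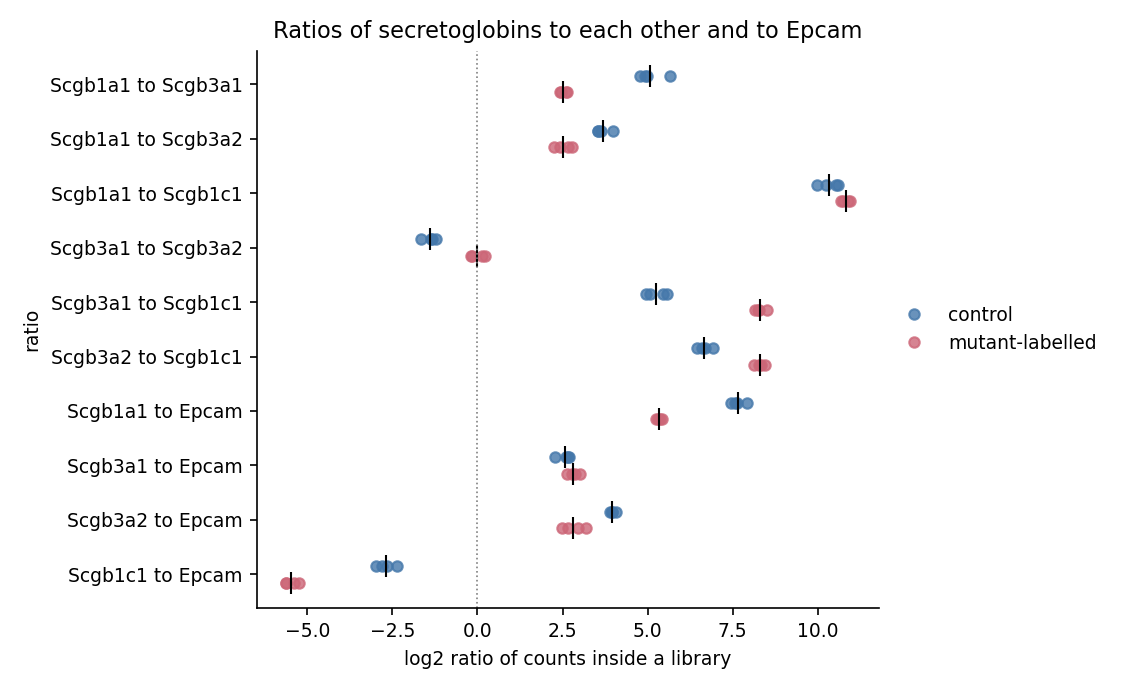
Log2 ratio of counts inside a library (horizontal axis) for the 6 pairs of secretoglobins and for each secretoglobin to Epcam; points are libraries, 4 per group, and the upright marks are group means. The groups overlap in the ratio of Scgb3a1 to Epcam and in no other of the 10.

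Other genes of club cells were set beside the secretoglobins. Of 30 club cell enzymes, which detoxify inhaled compounds and handle aldehydes and peroxides, 21 fell and 1 rose, with a median log2 fold change of -0.73, against -0.01 over all tested genes. Over all tested genes 5.45% were called higher and 2.36% lower, the background for this list and those that follow. Leaving out controls 2 and 3, 16 enzymes fell, and leaving out controls 1 and 4, 26 did. Over all genes, 628 rose and 223 fell without controls 2 and 3. Without controls 1 and 4, 3750 rose and 3338 fell. The paraoxonase gene Pon1 and the carboxylesterase gene Ces1f had larger falls than both Scgb1a1 and Scgb1c1, with log2 fold changes of -3.29 ± 0.11 and -2.65 ± 0.14 (SE). Cyp2f2, the main cytochrome P450 of club cells, lay between the 2 secretoglobins at -1.83 ± 0.14 (SE). These differences between genes were not tested. The enzyme that rose was Gsto1, with a log2 fold change of 0.89 ± 0.10 (SE), close in size to that of Scgb3a1.

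Of 25 secreted and surface products of club and related secretory cells, 9 rose and 4 fell, beside 5.45% and 2.36% of all tested genes. The list had a median log2 fold change of 0.36. Without controls 2 and 3, 10 rose and 3 fell, and without controls 1 and 4, 13 rose and 5 fell. Those with the lowest adjusted p were the alarmin Il33 (1.73 ± 0.08), the resistin-like gene Retnla (3.26 ± 0.19), the chemokine Cxcl17 (1.43 ± 0.10) and the iron-binding defence protein lactoferrin, Ltf (2.83 ± 0.22), all higher (log2 fold change ± SE). The 4 that fell were the claudin gene Cldn10, the sodium channel subunit gene Scnn1b, the cholecystokinin receptor gene Cckar and Lypd2, with log2 fold changes between -0.92 and -0.45. Not every gene of this list is particular to club cells, and it shares genes with the alveolar type II markers. Which cells made the products that rose was not tested. Of 7 goblet cell genes tested, 6 rose, beside 5.45% of all tested genes, with a median log2 fold change of 2.30. Foxa3 and another of the 6 stood at only 0.344 to 0.530 and 0.118 to 0.359 CPM in controls. Both passed the filter on low counts only through the mutant-labelled group, which favours a call of higher, so the count of 6 is not free of the filter. The 6 summed to 13.4 to 29.2 CPM in controls and 137.2 to 217.1 CPM in mutant-labelled libraries. Clca1, the gene not called, was the most abundant of the 7 and varied widely, at 35.7 to 315.0 CPM among controls and 64.4 to 279.1 CPM in the other group. Leaving out controls 2 and 3, 5 rose, and leaving out controls 1 and 4, 6 did. Goblet cells also make Scgb3a1, and the part of the goblet genes in its rise was not tested.

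Of 16 transcription factors and receptors that act on secretoglobin genes or on the secretory cell state, 4 rose and 0 fell by edgeR. The shares over all tested genes were 5.45% higher and 2.36% lower. At an unadjusted p under 0.05, 8 of the 16 were higher and 2 lower, and DESeq2 called 6 higher and 1 lower. Without controls 2 and 3, 3 rose and 0 fell, and without controls 1 and 4, 8 rose and 3 fell. The 4 were Elf3, an epithelial ETS factor (1.48 ± 0.10), Foxa3 (1.87 ± 0.32), Sox2, a factor of the airway epithelium (0.87 ± 0.16), and Spdef, a driver of goblet cells (0.75 ± 0.19), as log2 fold change ± SE. Foxa3 and Spdef are also among the goblet genes. Foxa3 was low, at 0.344 to 0.530 CPM in controls and 1.12 to 2.18 CPM in mutant-labelled libraries. It passed the filter on low counts only through the mutant-labelled group, which favours a call of higher. Nkx2-1, the factor whose core motif is marked in the promoters above, stood at 141.6 ± 22.4 and 175.9 ± 15.7 CPM in the control and the mutant-labelled group (SD, n = 4 each), and was not called (adjusted p = 0.130). Foxa2 had a log2 fold change of 0.10 ± 0.10 (SE) and was not called.

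Proteins that bind or take up secretoglobins were few. Of 6 listed genes 2 rose, beside 5.45% of all tested genes. The 2 were Lrp2, encoding the uptake receptor megalin, with a log2 fold change of 1.15 ± 0.10 (SE), and Sdc1, encoding syndecan-1, with 0.38 ± 0.08 (SE). Marco, a macrophage receptor reported to bind the Scgb3a2 protein, stood at 17.9 ± 4.96 and 15.4 ± 9.22 CPM (SD, n = 4 each) and was not called. Of 11 genes of the regulated secretion machinery, 0 were called by edgeR, 4 of them had an unadjusted p under 0.05, and DESeq2 called 1 higher and 1 lower. The median log2 fold change of this list was -0.07.

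**Figure D4:**
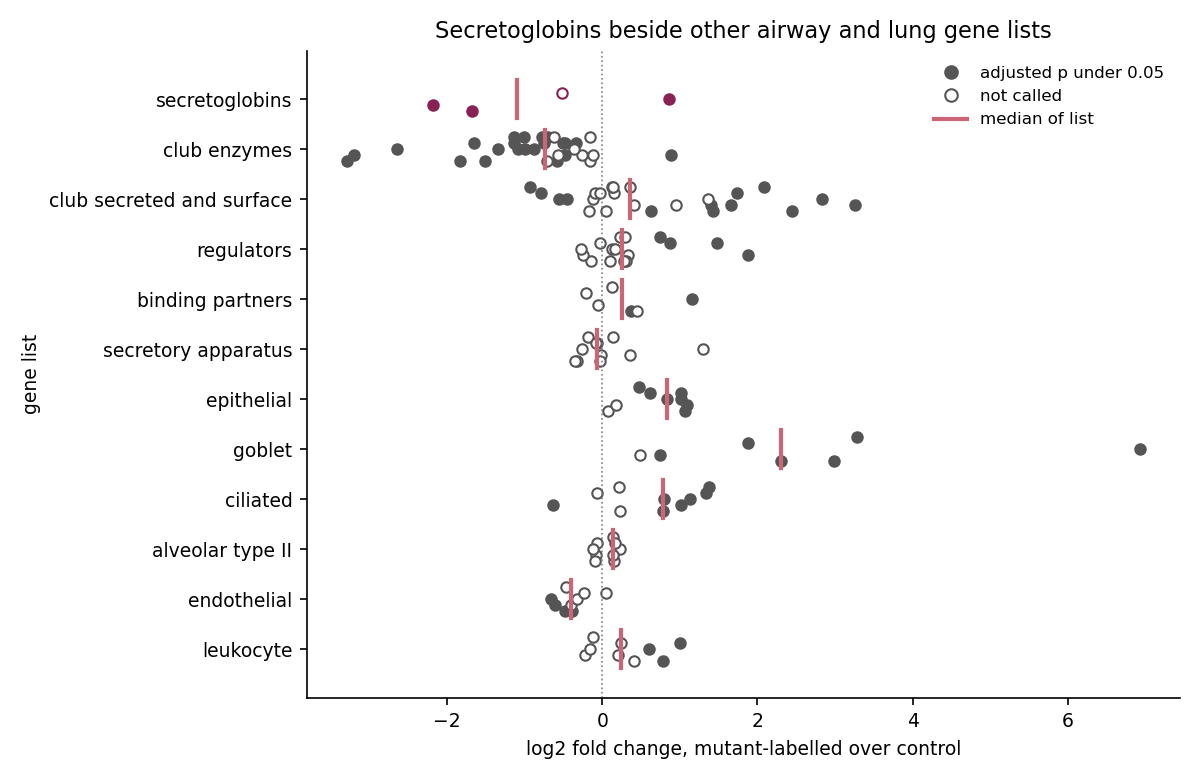
Log2 fold change, mutant-labelled over control (horizontal axis), of the 4 secretoglobins and of the genes of 11 other lists (vertical axis); filled points passed an adjusted p of 0.05, open points did not, and red bars are list medians. The secretoglobins spread from -2.18 to 0.85, the 30 club enzymes have a median of -0.73 and the goblet genes one of 2.30.

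The genes whose pattern over the 8 libraries was closest to each member were found by the root mean square difference between log2 CPM profiles, each centred on its own mean. For Scgb1a1, whose own profile had a root mean square of 0.85, these were Cyp2f2 (0.20), Cyp4f15 (0.21), Cbr2 (0.22), Cyp2a5 (0.23) and Ces1e (0.23), 5 genes of enzymes. For Scgb1c1, with an own value of 1.08, they were Cyp2f2 (0.19), the calcium pump gene Atp2b2 (0.28), Scgb1a1 (0.29), Cyp2a5 (0.30) and Ces1f (0.32). Cyp2f2 and Cyp2a5 thus stood near both members that fell. Cyp2a5, Ces1e and Ces1f share sequence with paralogs, and reads that mapped to several places were not counted, so their levels are uncertain. For Scgb3a1, with an own value of 0.49, the closest were the radial spoke gene Rsph9 (0.12), Dmkn (0.12), the mitochondrial creatine kinase gene Ckmt1 (0.13), Arntl2 (0.13) and Dyrk3 (0.13). For Scgb3a2, with an own value of 0.34, they were Gata4 (0.10), Dapk2 (0.11), Tmem205 (0.11), Faim2 (0.11) and the cytochrome gene Cyb5a (0.12). Across 2 groups of 4, most of a profile is the difference between the groups, so a small distance says mainly that 2 genes changed by a like amount.

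The directions of all 4 secretoglobins held in each of 17 alternative settings. In the settings that only left out libraries this could hardly be otherwise, since the groups of each member did not overlap. Scgb1a1 and Scgb1c1 were called lower in all 17, with log2 fold changes from -2.31 to -1.62 and from -2.79 to -1.97. Scgb3a1 was called higher in 16 of 17, the exception being the scaling to Epcam, with values from 0.25 to 1.04. Scgb3a2 was called lower in 5 of 17, with values from -1.12 to -0.40. Of these 5, 1 was the scaling to Epcam, where it lay 0.50 below the median of all genes, against 0.51 below with all libraries and TMM.

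**Figure D5:**
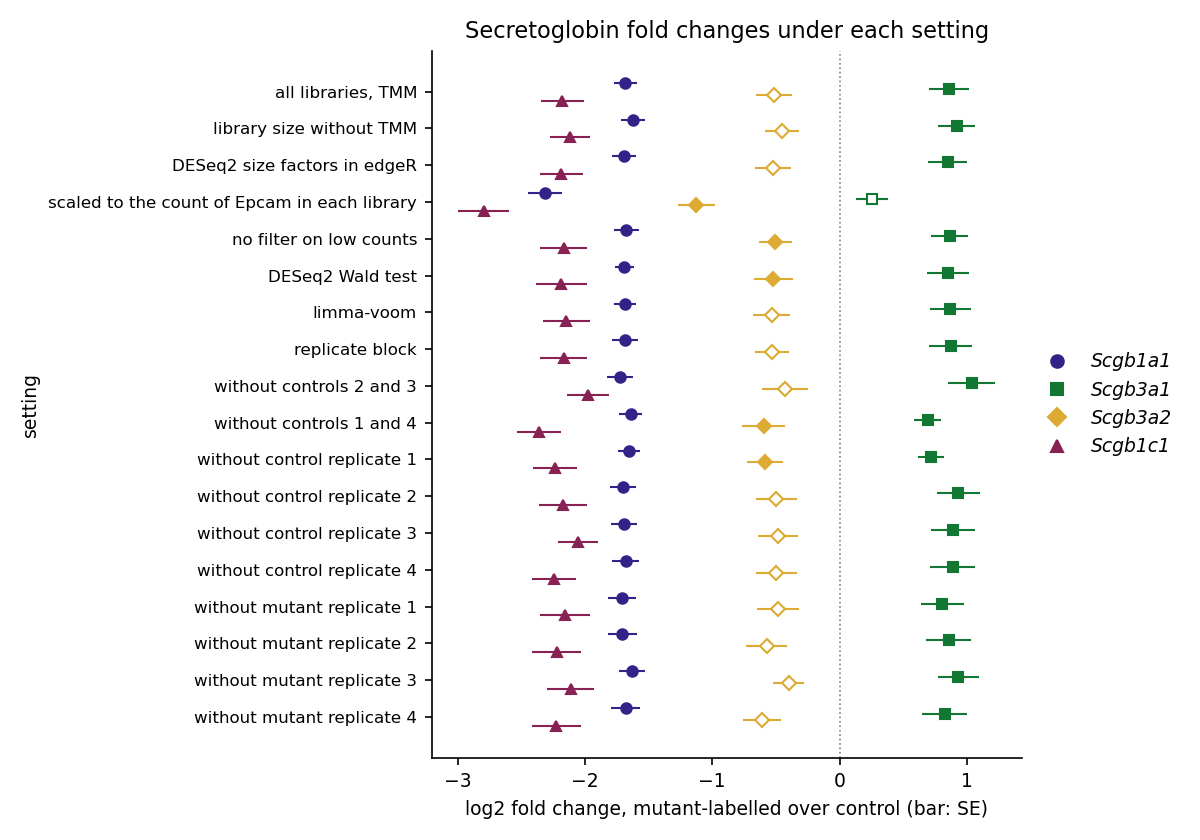
Log2 fold change, mutant-labelled over control, with its SE (horizontal axis) of the 4 secretoglobins with all libraries and under 17 alternative settings (vertical axis); filled markers passed an adjusted p of 0.05. Scaling to Epcam moves all 4 genes to the left, and Scgb3a2 is filled in 5 of the alternatives.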

How the data were processed

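Libraries were grouped by their titles, 4 per group. The deposited table holds raw counts per gene. Per the file headers, featureCounts 1.6.2 assigned fragments to GENCODE release M25 genes (GRCm38), ignoring strand and leaving out multi-mapped reads and reads over several genes. STAR, Bowtie2 and Cufflinks appear in the submitters' processing notes. RPKM used the deposited exonic lengths, and 99.5% of identifiers had a symbol.

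After filterByExpr (count 10, total 15) and TMM scaling, edgeR 4.0.16 in R 4.3.3 gave quasi-likelihood tests (robust, groups only) adjusted by Benjamini-Hochberg over 16964 genes, at a threshold of 0.05. SEs came from the F statistic. The procedure was checked on simulated counts. Ratios used counts plus 0.5 and 70 arrangements (SciPy 1.17.1). Chi-square per gene inside a group was 4.55 to 41.3, more than sampling noise, so every library counted as 1.

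Members, gene lists and alternatives (scalings, no filter, DESeq2 1.42.0, limma-voom with limma 3.58.1, replicate block, omitted libraries, TPM) were chosen with earlier results of these data known, and motifs with the promoters in view. Named genes were the members, other secretoglobins with counts, up to 4 genes per list by adjusted p, those that make up a count, and the 5 closest profiles, without predicted genes, pseudogenes and clone names. Nkx2-1, Foxa2 and Marco were named after their values were seen. RefSeq's promoter table for GRCm38.p6 held 2 of the 4 members. A gene that the naming rule picks is not reported here.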

Additional observations from a re-analysis of the deposited data

Results flagged for a closer look

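Scgb3a2 in the controls had 1 library far from the others. Control 1 stood at 891.3 CPM and controls 2 to 4 at 1093 to 1126 CPM, and the gap of control 1 to its nearest neighbour was 0.858 of the whole range of the group. It was the only such case in 28 groups of 4 values (4 members and 10 ratios in each group), and chance flags about 1 in 20 groups. Without control 1 the log2 fold change of Scgb3a2 was -0.58 (edgeR, adjusted p = 0.0272), and it was not called with all libraries.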

How the results depend on the processing

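Scgb3a2 was the member nearest the threshold. Its log2 fold change was -0.51 without a filter, -0.52 with DESeq2, -0.60 without controls 1 and 4 and -1.12 scaled to Epcam, each called, and -0.61 to -0.40 with 1 library left out, called without control 1 only. Scgb3a1 was at 0.25 scaled to Epcam, not called. No ratio moved by more than its larger replicate SD, though with 7 libraries the permutation test cannot go below 0.0571. TPM in place of RPKM gave Scgb1a1 84563 and 28607, Scgb3a1 2013 and 3967, Scgb3a2 3578 and 2720 and Scgb1c1 68.3 and 16.4 in controls and mutant-labelled libraries; within a library TPM is RPKM times a constant, so the order of genes could not differ.

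Over all genes, 924 rose and 401 fell (69.7% of calls higher). Scaled to Epcam these were 300 and 11511 (2.54% higher), since that scaling shifts the median to -0.63. With DESeq2 939 fell (58.7% of calls higher), without controls 2 and 3 223 fell, and without controls 1 and 4 3750 rose and 3338 fell. With 1 library left out 515 to 1517 rose and 146 to 1117 fell.

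Scaled to Epcam, 12 secreted and surface genes fell, 2 regulators rose and 9 fell, 1 binding partner rose and 2 fell, 9 secretion genes fell, 4 epithelial markers rose and 2 fell, 4 ciliated, 9 alveolar type II and 9 endothelial markers fell, and 1 leukocyte marker rose and 1 fell. Without controls 1 and 4, 8 regulators rose and 3 fell, 3 secretion genes rose and 5 fell, 1 alveolar type II and 8 endothelial markers fell and 6 leukocyte markers rose. With DESeq2 1 regulator fell, 1 secretion gene rose and 1 fell, and 8 endothelial markers fell. Without a filter 1 secretion gene rose and 7 endothelial markers fell. Without controls 2 and 3, 0 endothelial markers fell. With 1 library left out, 3 to 6 regulators rose and 0 to 1 fell, 1 to 2 binding partners rose, 0 to 1 secretion genes rose and 0 to 2 fell, 0 to 7 endothelial markers fell and 2 to 3 leukocyte markers rose. The cause of these moves was not tested beyond the shift that the Epcam scaling makes.

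The replicate numbers are not stated to pair libraries. Same-numbered libraries correlated at 0.01, 0.13, -0.12 and 0.13 in their deviations from the group means, and 2 of the 4 correlated best with their own number. With the replicate block, the log2 fold changes of Scgb1a1, Scgb3a1, Scgb3a2 and Scgb1c1 were -1.68, 0.87, -0.53 and -2.17, on the same side of the threshold as without it, and 865 genes rose and 371 fell.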
